A study of Homo sapiens with 3 samples.

Results

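HKDC1 (hexokinase domain containing 1), HK1 and HK2 are hexokinases, the enzymes that phosphorylate glucose once it has entered a cell. They were taken as a gene family, by name, and every probe set that the platform annotation assigned to 1 of them alone was used. That gave 8 probe sets, 4 for HKDC1, 1 for HK1 and 3 for HK2, among 41091 probe sets named for a single gene and 19775 genes in all. The series title names HKDC1 as a gene activated by the histone demethylase JMJD3.

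PANC-1 is a long-established human line from a pancreatic ductal adenocarcinoma, and RNA of 3 stable, otherwise untreated derivatives of it was read on Affymetrix arrays, 1 array each. The control line held a blank MSCV vector, a retroviral vector, and the other lines expressed wild-type JMJD3 or mutant JMJD3 (JMJD3 is the product of KDM6B and removes trimethylation from lysine 27 of histone H3). The labels do not give the mutation, or whether a line is a clone or a pool. With 1 array a group there was no replicate, so no test was possible, no p-value is given, and precision is limited by the number of arrays.

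Values are deposited log2 signals, and the arrays had medians of 5.50 (control), 5.48 (wild-type JMJD3) and 5.49 (mutant JMJD3). Signals at or under the pooled median, log2 5.48, were treated as dim and set to that floor before subtraction. A difference is 1 floored log2 signal minus another. With only 1 side over the floor, a fold is a lower bound (at least N-fold), and with neither, none is given. The text marks differences of 2-fold, which is 1 on the log2 scale. The epithelial markers KRT7, KRT8, KRT18, KRT19 and EPCAM were over the floor in all 3 arrays (KRT19 at 5.55 in control). The hepatocyte, acinar and endocrine markers with a named probe set were all at or under it, as were the leukocyte markers PTPRC (3.41 in each array), CD3E and CD14, while HK3, a myeloid gene on the same list, read 5.63 in each. Of the endothelial markers PECAM1 lay over it, at 6.28, 6.28 and 6.27. Of 5 KDM6B probe sets, 1556067_a_at read 5.53 in control, 6.73 with wild-type and 6.45 with mutant JMJD3, and 1556066_at went the same way, while the other 3 differed by at most 0.11 between arrays.

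Hexokinases trap glucose in the cell as glucose 6-phosphate, which then feeds glycolysis, the pentose phosphate pathway and glycogen synthesis. HK1 is the broadly expressed isoform, HK2 is the inducible isoform of muscle, fat and many tumours, and both can bind the outer mitochondrial membrane. HKDC1 is a later described relative of the same fold that lies beside HK1 on the chromosome, and it is known from work on glucose tolerance in pregnancy and from several carcinomas.

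The sequences just before the first annotated start of each gene are shown because, at these starts, the HKDC1 and HK1 windows are poor in CpG and the HK2 window is rich in it. Other HK1 starts differ from the one printed. They are RefSeq sequences of build GRCh38.p14, 250 bases each on the plus strand, 5′ to 3′. HKDC1 is at chr10:69220082-69220331, HK1 at chr10:69269750-69269999 and HK2 at chr2:74833877-74834126. Capitals mark matches, on either strand, to the TATA box (TATAAA), the CCAAT box (written CCAAT), the GC box (written GGGCGG), the E box (written CACGTG) and the hypoxia response core (written ACGTG), the last of which also lies inside the E box.
HKDC1: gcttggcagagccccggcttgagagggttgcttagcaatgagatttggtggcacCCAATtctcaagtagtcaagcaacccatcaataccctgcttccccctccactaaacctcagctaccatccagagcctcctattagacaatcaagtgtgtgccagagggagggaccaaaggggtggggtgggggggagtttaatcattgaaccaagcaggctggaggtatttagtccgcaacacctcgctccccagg
HK1: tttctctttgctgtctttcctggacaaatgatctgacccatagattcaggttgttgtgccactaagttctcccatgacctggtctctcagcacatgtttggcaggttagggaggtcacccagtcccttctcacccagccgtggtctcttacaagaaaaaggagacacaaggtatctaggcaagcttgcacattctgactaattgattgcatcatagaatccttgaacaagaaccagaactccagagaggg
HK2: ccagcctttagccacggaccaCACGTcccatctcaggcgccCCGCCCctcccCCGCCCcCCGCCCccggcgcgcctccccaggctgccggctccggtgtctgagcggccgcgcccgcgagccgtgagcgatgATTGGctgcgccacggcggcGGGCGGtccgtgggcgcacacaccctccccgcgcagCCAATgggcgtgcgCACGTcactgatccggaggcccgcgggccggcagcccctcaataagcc

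The HKDC1 window held 3 CpG dinucleotides, an observed over expected ratio of 0.162, which was at percentile 18.4 of 34788 distinct windows of this length. The HK1 window held 1 CpG (ratio 0.073, percentile 7.84). The table holds 7 starts for HK1, and the ratio over their windows ran from 0 to 0.877. The highest was at chr10:69318814-69319063, with 30 CpG (percentile 78.8). The HK1 window printed thus does not stand for every HK1 start. The HK2 window was rich in CpG, with 34 (ratio 0.956, percentile 87.6), and the window of its second start had a ratio of 0.92. HKDC1 had a CCAAT match, which 32.0% of all windows share, and no match to the other 4 motifs. HK1 had no match to any of the 5 in the window printed, while some windows of its other starts held a CCAAT or a GC box match. HK2 had CCAAT, GC box and hypoxia core matches, found in 32.0%, 42.6% and 18.5% of windows. The window of its second start held GC box, hypoxia core and E box matches, the last found in 6.31%, and no CCAAT match. A match is a description of the letters and not a binding site, and these arrays do not show which start was used.

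HKDC1 was over the floor in the wild-type JMJD3 array and in neither of the others. Probe set 227614_at, the brightest for this gene by mean signal, read 4.19 in control, 8.02 with wild-type and 4.24 with mutant JMJD3. It was brightest only through the wild-type array. In control and with mutant JMJD3 it read lowest of the HKDC1 probe sets, all of them under the floor. As ranks among the 54613 probe sets of each array, which no scaling of an array changes, these values lay at percentile 28.2 in control, 79.2 with wild-type and 29.3 with mutant JMJD3. The wild-type array thus stood alone, and control and mutant JMJD3 were both among the dim signals, 0.05 apart. The floored difference was 2.54 against either, at least 5.82-fold. The deposited values themselves differed by 3.83 and 3.78, in a range where dim signals have no reliable order. The bound follows the floor, at 3.13 for the 40th percentile and 1.85 for the 60th, and it was 0.59, under 2-fold, as the median of the 3 measured HKDC1 probe sets.

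The remaining HKDC1 probe sets were dimmer. Probe set 237323_at read 4.58 in control, 6.07 with wild-type and 4.73 with mutant JMJD3, at least 1.51-fold. It passed 2-fold against both (1.18 on the log2 scale) with the floor at the 40th percentile. Probe set 237324_s_at read 4.97, 5.51 and 4.40, so that wild-type JMJD3 exceeded the floor by 0.03. Probe set 220585_at stayed under the floor, with 4.68 in control, 4.94 with wild-type and 4.62 with mutant JMJD3. Signals under the floor have no order, so 220585_at says nothing of which array was high. Of the 4 probe sets 1 was 2-fold higher with wild-type JMJD3, where 0.667% of 28026 measured probe sets were 2-fold higher than control and 2.38% of 28299 were 2-fold higher than mutant.

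**Figure D1:**
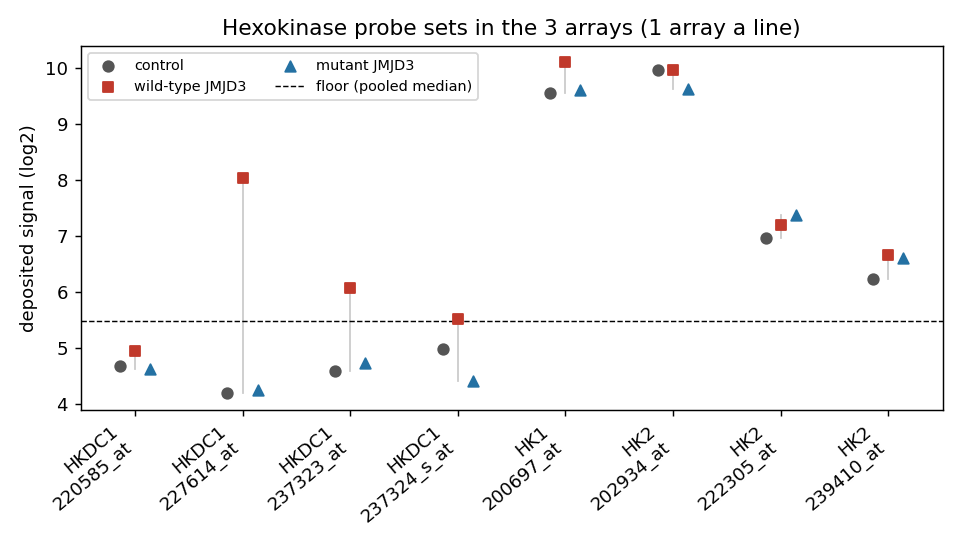
Deposited log2 signal (vertical axis) of the 8 hexokinase probe sets (horizontal axis) in the control (circles), wild-type JMJD3 (squares) and mutant JMJD3 (triangles) arrays, 1 array each, so there are no error bars; the dashed line is the floor. Probe set 227614_at of HKDC1 reads 8.02 with wild-type JMJD3 and 4.19 and 4.24 in the others, while HK1 and HK2 lie over the floor in every array.

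Among the 12312 genes over the floor in both the control and the wild-type array, 2 were higher by 2.54 or more, the secretory protein gene AGR2 and the beta globin gene HBB. Among the 12255 over the floor in both JMJD3 arrays, 1 was, again HBB. These genes were named after their values were seen. Of 12867 measured genes, 32 (0.249%) were 2-fold higher with wild-type than in both other arrays, and HKDC1 was 1 of them. At its brightest probe set it was also 1 of 2 genes that were over the floor in the wild-type array alone and at least 2-fold above it. The other was SPINK1, a pancreatic trypsin inhibitor, at 4.46 in control, 6.74 with wild-type and 4.75 with mutant JMJD3. For comparison, 25 genes stood at least 2-fold over the floor in the mutant array alone and 1 in the control array alone. HKDC1 was measured, and its probe set chosen, only through its wild-type signal. Its place in these counts restates that signal and is no separate support. An array reads the pooled RNA of a culture, so more cells that express HKDC1 and more HKDC1 RNA per cell cannot be told apart.

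HK1 was over the floor in every line and read slightly higher with wild-type JMJD3. Its single probe set, 200697_at, read 9.55 in control, 10.09 with wild-type and 9.60 with mutant JMJD3. The wild-type array was again the high one, and control and mutant lay 0.05 apart. The difference from control was 0.54 (1.45-fold), under 2-fold, and that from mutant 0.49 (1.40-fold). A difference of this size was common, since 9.58% of the 12312 genes over the floor in both arrays were as high or higher against control and 15.8% of 12255 against mutant. HK1 rests on 1 probe set, so no other probe set could be set beside it.

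HK2 was also over the floor in every array, and its probe sets did not move together. The brightest, 202934_at, read 9.95 in control, 9.95 with wild-type and 9.62 with mutant JMJD3, so the mutant array was the low one, by 0.33 (1.26-fold). In 222305_at the order was turned, with 6.96 in control, 7.19 with wild-type and 7.36 with mutant JMJD3. The third, 239410_at, read 6.22, 6.66 and 6.61, and here control was the low array. Against control the mutant array was thus 0.33 lower in 1 probe set and 0.40 and 0.39 higher in the others. Taking the median of its 3 probe sets, HK2 was 0.39 higher with mutant JMJD3 than in control.

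Such disagreement was counted over all genes with several measured probe sets. For mutant against control, 361 of 6101 such genes (5.92%) had at least 1 probe set lower by 0.3 or more and another higher by 0.3 or more, a size chosen after the HK2 values were seen. For wild-type against control it was 208 of 6070 (3.43%). The genes counted were not matched to HK2 by number of probe sets, so these shares do not show how unusual HK2 was. No direction is given for HK2 with mutant JMJD3, since its probe sets differ in sign. Which transcripts each HK2 probe set reads was not tested.

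**Figure D2:**
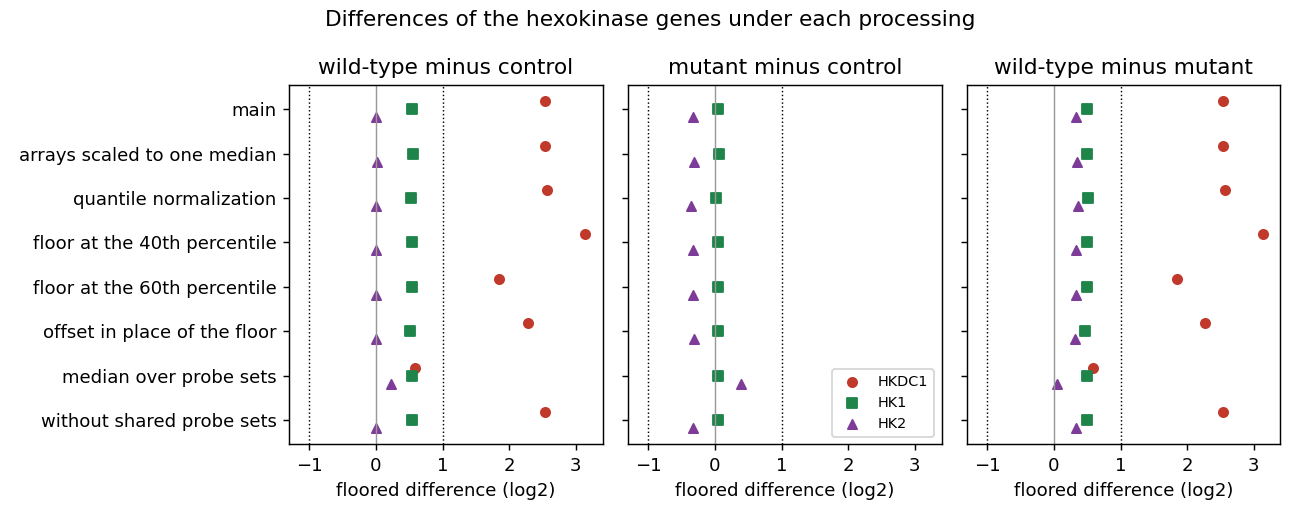
Floored log2 difference (horizontal axis) of HKDC1 (circles), HK1 (squares) and HK2 (triangles) in the 3 comparisons (panels) under the processing used in the text and 7 alternatives (rows), with dotted lines at 2-fold; HKDC1 was at the floor in both arrays of the middle panel. HKDC1 stays past 2-fold except with the median over its probe sets (0.59), and HK2 turns from -0.33 to 0.39 there for mutant minus control.

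Other genes that phosphorylate glucose differed less than HKDC1. HK3, the hexokinase of myeloid cells, read 5.63 in all 3 arrays, just over the floor. ADPGK, which phosphorylates glucose with ADP in place of ATP, read 10.57 in control, 10.67 with wild-type and 10.16 with mutant JMJD3. Its other probe set had the same order, at 7.72, 7.84 and 7.23. The mutant array was thus the low one for ADPGK in both, by 0.41 at the brighter. The HK3 probe set and both ADPGK probe sets are shared, meaning that their probes can match several transcripts. Of the 5 genes measured, HKDC1 was the 1 at 2-fold, both against control, where 0.953% of 12697 measured genes were 2-fold higher and 1.31% lower, and against mutant, where 2.61% of 12829 were higher and 6.2% lower. Between mutant and control none of the 4 measured genes reached 2-fold (background 2.98% higher and 0.535% lower of 12707 genes). The comparisons share their arrays, so the third difference follows from the other two.

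HKDC1 and HK1 are direct neighbours on the chromosome, with HKDC1 first in the direction of transcription, and none of the flanking genes was over the floor in the wild-type array alone. On the HKDC1 side, SUPV3L1, a mitochondrial RNA helicase gene, read 9.55 in control, 9.61 with wild-type and 9.39 with mutant JMJD3. VPS26A, a retromer subunit gene, read 11.52, 11.01 and 11.94 and was lowest with wild-type JMJD3. SRGN, which encodes the proteoglycan serglycin, was at 4.40 in control, 6.56 with wild-type and 7.12 with mutant JMJD3, at least 2.11-fold and at least 3.12-fold over control. Its probe set 201858_s_at, a shared one, had 4.57, 5.80 and 5.73, at least 1.25-fold and at least 1.19-fold over control. Its probe set 1554676_at read 3.05 in each array. At 201859_at, the brightest, and 201858_s_at, SRGN was thus over the floor in both JMJD3 arrays, while HKDC1 was over it in the wild-type array alone. On the HK1 side, the tachykinin receptor gene TACR2 and the endocrine transcription factor gene NEUROG3 were under the floor in every array. TSPAN15, a tetraspanin gene, read 6.35 in control, 6.72 with wild-type and 6.36 with mutant JMJD3, with wild-type 0.37 over control and control and mutant 0.01 apart, the order seen for HK1.

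**Figure D3:**
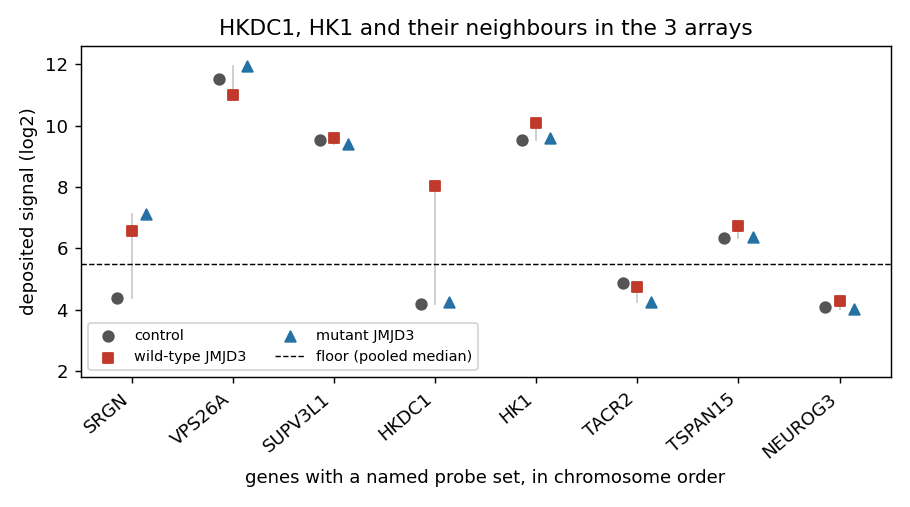
Deposited log2 signal (vertical axis) of HKDC1, HK1 and the 3 genes with a named probe set on either side, in chromosome order (horizontal axis, not to distance), in the control (circles), wild-type JMJD3 (squares) and mutant JMJD3 (triangles) arrays, 1 array each; the dashed line is the floor. HKDC1 is over the floor with wild-type JMJD3 alone, and SRGN with both JMJD3 arrays.

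The genes beside HK2 were mostly level. POLE4, a DNA polymerase epsilon subunit gene, read 9.91 in control, 10.24 with wild-type and 9.27 with mutant JMJD3. It was lowest in the mutant array, by 0.64 against control, as was the brightest HK2 probe set but not the others. POLE4 probe set 1553587_a_at had the same order, at 9.56, 9.94 and 8.88, 2.08-fold between the JMJD3 arrays. SEMA4F read 7.31, 7.41 and 7.41 and DOK1 6.70, 6.74 and 6.74. The uncharacterised LOC105374809 read 6.70 in each array, and M1AP and TACR1 were under the floor.

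The pathway around the hexokinase step was described with lists of transporters, docking partners, regulators and enzymes, each gene counted by its brightest probe set. For wild-type JMJD3 against control, the median over all measured genes was 0.05, with 54.4% of them higher. For both other comparisons the median was 0.00. Sugar transporters supply the substrate. Of 9 measured, none reached 2-fold between wild-type JMJD3 and control, around a median of 0.10. With mutant JMJD3, SLC2A1 (GLUT1) read 7.15 against 8.27 in control and 8.80 with wild-type. SLC2A3 (GLUT3) read 7.85 against 9.13 and 9.62, and its other probe sets, 202497_x_at (8.46, 9.62 and 6.93) and 202498_s_at (7.55, 7.95 and 5.97), had the same order. In the first of these wild-type JMJD3 exceeded control 2.23-fold, unlike in the brightest. With mutant JMJD3, 2 of the 9 transporters were 2-fold lower than control, where 0.535% of all measured genes were, and 1 was 2-fold higher, where 2.98% were. The higher one was SLC2A13, a proton-coupled inositol transporter, with 8.13 in control, 8.02 with wild-type and 9.81 with mutant JMJD3. SLC2A1 rests on a shared probe set, as its other one read 3.64 in all 3 arrays, and it was under 2-fold (-0.92) with an offset instead of the floor. All 3 SLC2A3 probe sets are shared as well, so both lower transporters rest on shared probe sets.

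HK1 and HK2 bind the voltage-dependent anion channels (VDAC) of the outer mitochondrial membrane, next to the adenine nucleotide translocases and other pore-associated proteins. The list called docking partners holds the channel genes and genes of these nearby proteins. All 8 of its measured genes exceeded control in the wild-type array, by 0.04 to 0.60, where 54.4% of all measured genes did. The channel genes VDAC1, VDAC2 and VDAC3 did so by 0.05, 0.34 and 0.16. The list median was 0.31 against 0.05 over all genes. None reached 2-fold, and with quantile normalization VDAC1 (-0.02) and SLC25A5 (-0.0044) were below control. BAD, a BH3-only protein of the mitochondrial surface, read 8.83 in control, 9.43 with wild-type and 8.62 with mutant JMJD3, and its probe set 1861_at had the same order (7.58, 8.10 and 7.27). SLC25A4, a muscle-type translocase, read 8.49, 8.85 and 8.01, and TSPO, a cholesterol-binding outer membrane protein, 10.89, 11.28 and 10.83. VDAC1, the main channel, read 12.45, 12.50 and 12.39 at its brightest probe set. Its probe set 217140_s_at read 10.61, 10.81 and 10.19, a difference of 0.62 between the JMJD3 arrays. All 8 also exceeded the mutant array in the wild-type array (median 0.395, with 49.7% of all genes higher). Against control the mutant array was lower for 6 of 8, with a median of -0.12, where 41.2% of all measured genes were lower and their median was 0.00.

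**Figure D4:**
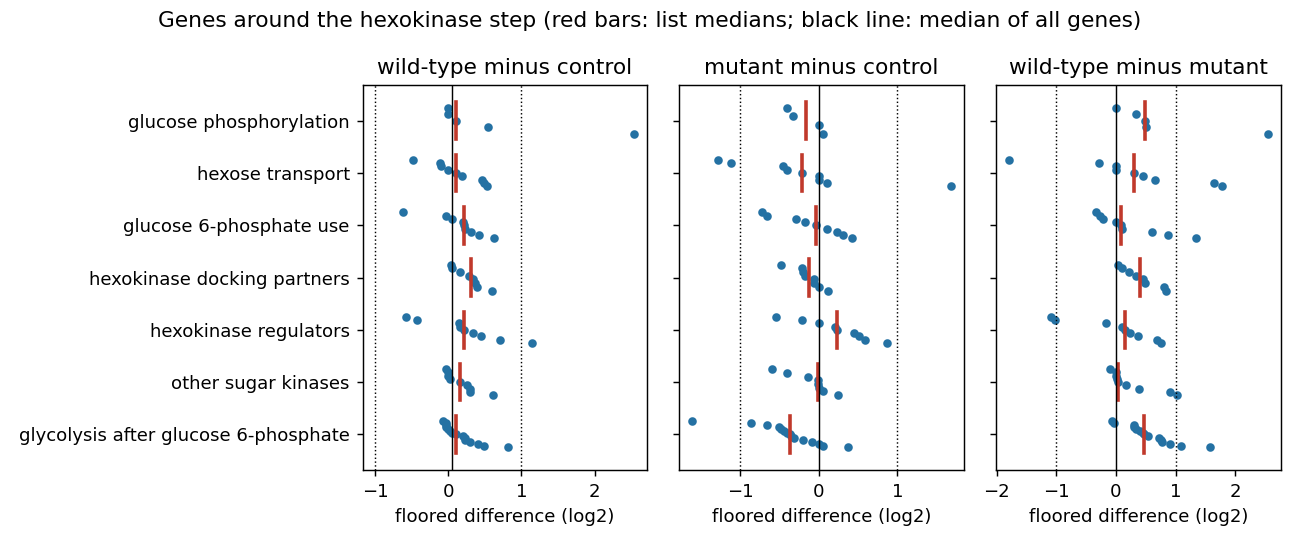
Floored log2 difference (horizontal axis) of each measured gene (points) of 7 lists around the hexokinase step (rows) in the 3 comparisons (panels), with list medians as red bars, the median of all measured genes as a black line and dotted lines at 2-fold. The point at 2.54 in the outer panels is HKDC1; docking partners have medians of 0.31 and 0.395 there, and glycolysis genes one of -0.37 for mutant minus control.

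Among 9 measured genes for factors that act on hexokinases, the kinase gene AKT2 was the 1 at 2-fold over control with wild-type JMJD3, where 0.953% of all measured genes were. It read 7.86 in control, 9.00 with wild-type and 8.31 with mutant JMJD3 (2.20-fold). This rests on a shared probe set, and AKT2 was 0.67 higher without it, as its probe set 226156_at read 7.84, 8.51 and 8.58. Its probe set 236664_at read 6.09, 6.13 and 6.73, a difference of 0.04 from control with wild-type JMJD3. HIF1A, the oxygen-regulated factor that induces HK2, read 11.80, 11.22 and 12.31, and MYC, another activator of HK2, 11.98, 11.55 and 12.57. Both were lowest with wild-type and highest with mutant JMJD3, 2.13-fold and 2.03-fold apart, and between these arrays 6.2% of all measured genes were 2-fold apart in this direction. TIGAR, a fructose bisphosphatase reported to bind HK2, read 9.29, 9.50 and 8.74. TFEB, a lysosomal transcription factor reported to act on HKDC1, read 6.64, 7.35 and 7.51 at the brighter probe set and 6.98, 7.01 and 6.98 at the other.

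Glucose 6-phosphate is used by several enzymes, and 1 of 9 measured genes reached 2-fold, with wild-type over mutant JMJD3, as did 2.61% of all measured genes. G6PC3, a glucose 6-phosphatase that reverses the hexokinase step, read 10.41 in control, 11.03 with wild-type and 9.69 with mutant JMJD3, 2.53-fold between the JMJD3 arrays. Its other probe set had the same order, at 7.25, 7.88 and 6.80. GPI, which starts glycolysis from glucose 6-phosphate, read 12.14, 12.35 and 11.48. UGP2, which makes UDP-glucose for glycogen, read 11.72, 11.10 and 11.43, and its unshared probe set, 232180_at, was 1.13 lower with wild-type than in control. The list median was 0.21 for wild-type and -0.03 for mutant JMJD3 against control.

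Of the kinases for other sugars, none reached 2-fold against control in either JMJD3 array. FCSK, the fucose kinase, read 8.64 in control, 9.25 with wild-type and 8.23 with mutant JMJD3, 2.03-fold between the JMJD3 arrays (2.61% of all measured genes were 2-fold higher there) and under 2-fold (0.92) with the offset. NAGK, which phosphorylates N-acetylglucosamine, read 8.80, 9.10 and 8.20. The list medians were 0.16 for wild-type and -0.01 for mutant JMJD3 against control. RBKS, the ribokinase, held 7.87 in all 3 arrays. Over the whole file 21.0% of probe sets had 1 value in all 3 arrays, and 6.98% of those over the floor in an array did. None of the 8 hexokinase probe sets was among them.

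The enzymes after glucose 6-phosphate were near control with wild-type JMJD3 and mostly lower with mutant JMJD3. With wild-type the median over 15 measured genes was 0.10 and none reached 2-fold. ENO3, the muscle enolase, was furthest, at 9.70 in control and 10.52 with wild-type JMJD3. With mutant JMJD3, 12 of 15 were lower and the median was -0.37, where 41.2% of all genes were lower. ALDOC, an aldolase, was furthest below control, at 7.61 against 9.22 in control and 9.18 with wild-type JMJD3, and was the 1 gene 2-fold lower than control, where 0.535% of all measured genes were. TPI1, the triose phosphate isomerase, read 13.07, 13.30 and 12.21, but its unshared probe set read 6.54, 6.68 and 6.59. The brightest HK2 probe set was lower with mutant JMJD3 as most of these genes were, and the others were not.

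The genes nearest to HKDC1 in pattern changed with the treatment of its dim signals. Likeness was measured as the distance between the log2 differences from control in the wild-type and mutant arrays, over 19774 other genes and their brightest probe sets. HKDC1 was under the floor in control and with mutant JMJD3, so its place is a bound and no distance to it is exact. With floored values the nearest genes were the bone morphogenetic protein gene BMP2 at 0.658 (8.43 in control, 10.34 with wild-type and 8.62 with mutant JMJD3) and HBB at 0.707 (7.53, 10.71 and 7.23). They were followed by CRYAB at 0.897, the non-coding LINC01116 at 0.899 (6.23, 8.11 and 6.84) and SNORC at 1.03. With the deposited values HBB came first (0.738), then SPINK1 (1.57), BMP2 (1.93), the Wnt antagonist gene DKK1 (2.01) and LINC01116 (2.03), so 3 of the 5 genes were the same. HBB and SPINK1 were read by shared probe sets. The likeness rests on 3 arrays and describes only their order and spacing.

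**Figure D5:**
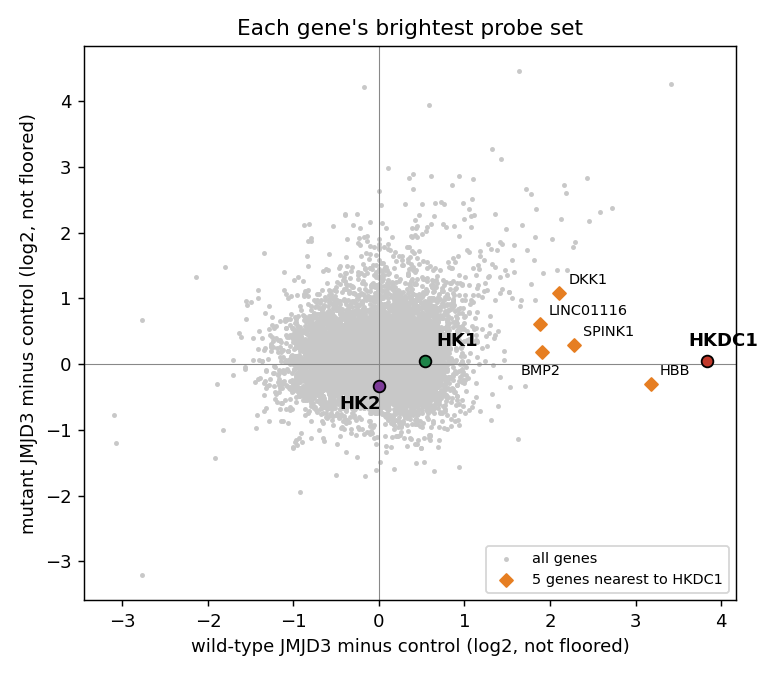
Log2 difference of wild-type JMJD3 from control (horizontal axis) and of mutant JMJD3 from control (vertical axis) for 19775 genes (grey points) at their brightest probe sets, from deposited values without the floor; both axes share the control array. HKDC1 lies at 3.83 and 0.05, taken from control and mutant signals under the floor, its 5 nearest genes on these values (diamonds) at distances of 0.738 to 2.03, and HK1 and HK2 lie within the main cloud.

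For HK1 and the brightest HK2 probe set, the nearest genes of similar signal had nearly equal differences. They were picked as the closest of many, so small distances follow from the choice. Of 2036 genes with a mean log2 signal within 0.5 of HK1, the nearest, GPN1, MRPS18A and TUBB2A, lay at a distance of 0.01. GPN1, for example, read 9.58 in control, 10.12 with wild-type and 9.62 with mutant JMJD3. Of 1993 such genes for the brightest HK2 probe set, LTBP1 (0.03), B3GNT2 (0.04) and ANKFY1 (0.063) were nearest, and LTBP1 read 10.18, 10.18 and 9.88.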

How the data were processed

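The authors deposited 1 log2 signal per probe set and array. Per the submitters' processing notes the tool was MAS5. Its settings and any normalization between arrays are not given in the sources used here. The log2 columns ran from 2.42 to 14.94. Names came from the platform annotation. Of 54613 probe sets, 41091 had a single gene symbol; 1801 with several were not used, and 11721 were not listed. Identifiers of 41037 matched the RefSeq gene table of GRCh38.p14, and 0 symbols changed. That table also gave the order of neighbouring genes. The probe set with the highest mean stood for a gene. Measured genes of a comparison exceeded the floor in 1 or both of its arrays. Probe sets ending in _s_at or _x_at are called shared, as their probes can match several transcripts.

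The family and the gene lists were chosen with earlier results of these data known. Named are the hexokinases with all probe sets, list members at 2-fold or among the 3 largest differences, the 3 neighbours on either side, and the nearest genes in pattern. Not every such list member is described. For HK1 and HK2, likeness was sought among genes within 0.5 of their mean. 7 alternatives were run: quantile normalization, scaling to one median, a floor at the 40th or the 60th percentile, an offset of the pooled median, the median over a gene's measured probe sets, and no shared probe sets. Other floors for the genes over the floor in 1 array, and floored likeness, were chosen after seeing the data. The calculation was tested on simulated data. Scripts ran in Python 3.11.15 with matplotlib 3.10.9, pandas 2.3.3 and numpy 2.4.6.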

Additional observations from a re-analysis of the deposited data

How the results depend on the processing

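Of 56 recomputed differences of HKDC1, HK1 and HK2, 54 stayed on the same side of 2-fold. The exceptions were HKDC1 against control and against mutant JMJD3 with the median over its probe sets, a bound of 0.59 each time. Its bound otherwise ran up to 3.13, under a floor at the 40th percentile. HK1 against control ran from 0.51 to 0.56. HK2 against control with mutant JMJD3 ran from -0.35 to 0.39 and was positive with the median over probe sets. This change of sign stayed under 2-fold and is counted among the 54. Many of the 54 could not move. The probe sets that stand for the 3 genes are not shared, HK1 has 1 probe set, and HK1 and HK2 lay over every floor used. Counted with an offset instead of the floor, 2-fold genes were 70 higher and 71 lower for wild-type against control, 202 and 41 for mutant against control, and 208 and 479 for wild-type against mutant. Without shared probe sets, 79 were higher for wild-type against control. Of 147 list medians, 7 moved by more than 0.2. The median of the glucose-phosphorylating genes for wild-type against control was 0.32 under a floor at the 60th percentile and 0.54 without shared probe sets. HK3, at 5.63 in each array, was under that floor of log2 6.17 and left the list. HK3 and ADPGK were read by shared probe sets alone and left it without them. That of the sugar transporters was 0.00 for mutant against control, and 0.00 for wild-type against mutant, both under a floor at the 40th percentile and without shared probe sets. That of glycolysis genes for wild-type against mutant was 0.72 without shared probe sets. The cause of the other moves was not tested. HKDC1 stood over the floor in the wild-type array alone by 2-fold with all 3 floors, together with SPINK1 in the main processing, SPINK1 and PON3 at the 40th percentile, and ACTC1 and SNORC at the 60th. No paired analysis was possible because each group has 1 array. Signals near the floor limit the HKDC1 folds to lower bounds.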
